A study of Mus musculus with 14 samples.

Results

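The 10 genes of iron storage and transport described here are Fth1, Ftl1 and Ncoa4 (storage), Tfrc, Steap3, Slc11a2 and Slc11a1 (uptake and vesicle transport), Slc40a1 (export), and Aco1 and Ireb2 (regulators). They were chosen by symbol, and all 10 were found among the 17890 genes of the table, as 31 RefSeq transcripts.

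Cells take up iron through the transferrin receptor or by phagocytosis, move it out of vesicles into the cytosol, store it inside ferritin and export it through ferroportin. In macrophages, which recycle the iron of old red blood cells, the pathway handles more iron than most cells meet, and it is tuned largely after transcription: iron regulatory proteins bind a short hairpin, the iron-responsive element, in the mRNAs of storage, uptake and export genes. An mRNA level is therefore only one layer of this pathway.

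RNA was sequenced from cultures labelled as bone marrow-derived macrophages, cells grown from marrow progenitors with the growth factor M-CSF. The Diabetic group came from male C57BL/6J mice, 8 weeks old at allocation, made diabetic with streptozotocin, a toxin of insulin-producing cells, given by daily injection at 42 to 45 mg/kg for 5 days after 12 h without food. Animals above 16.9 mmol/L blood glucose were kept for 6 weeks of hyperglycaemia. The Healthy group came from control mice of the same strain, sex and age. Marrow of both groups was then cultured at 5 mmol/L glucose over 7 days, so neither group was in high glucose during culture. Each group had 4 libraries. Of the 14 samples of the series, the 6 of a later phase were not analysed here.

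Library totals ran from 19784071 to 20027967 estimated counts in the Diabetic and from 19048195 to 19926267 in the Healthy libraries. The table names its columns D and M: D was read as Diabetic, and M was matched to Healthy by elimination, so every direction below would turn if the letters meant otherwise. The labels do not say whether libraries of a group came from separate animals, so p-values measure the spread between these libraries, which may be technical. The libraries were not pure macrophages by their markers, so the levels below are those of mixed RNA and not of macrophages alone. The macrophage markers Adgre1 and Csf1r averaged 87.3 ± 22.4 and 209 ± 22.5 CPM (normalised read counts scaled to library size) in Diabetic libraries and 46.7 ± 6.92 and 162 ± 9.98 CPM in Healthy libraries (SD, n = 4 each). Cd68, another macrophage marker, was not higher, at 179 ± 14.4 CPM in Diabetic and 192 ± 39.7 CPM in Healthy libraries, which overlap. Lyz2, which neutrophils express too, averaged 8145 ± 1911 CPM in Diabetic and 4606 ± 303 CPM in Healthy libraries, and neutrophil markers summed to 46353 to 71606 CPM in Diabetic and 40065 to 42049 CPM in Healthy libraries. Macrophage markers without Lyz2 and Itgam, which neutrophils also express, summed to 681 to 831 CPM in Diabetic and 479 to 638 CPM in Healthy libraries. Haemoglobin transcripts were present too, as given below. In bulk RNA, fewer cells of a type and less RNA per cell cannot be told apart.

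Of the 10 genes, 1 was higher and 3 were lower in Diabetic than in Healthy libraries at an adjusted p under 0.05, by edgeR's quasi-likelihood test adjusted over 12839 genes. That is 40% of the members, where 34.7% of all tested genes passed, 17.4% as higher and 17.3% as lower, so the count of members is near the background. Their median log2 fold change was -0.26, against -0.03 over all tested genes. Fth1, Tfrc and Slc11a2 fell and Ireb2 rose. In CPM the groups did not overlap for 3 members: Fth1 and Tfrc lay lower and Ireb2 higher in every Diabetic library. The same separation was seen for 34.7% of all tested genes, 18.4% with Diabetic below Healthy and 16.3% above.

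**Figure D1:**
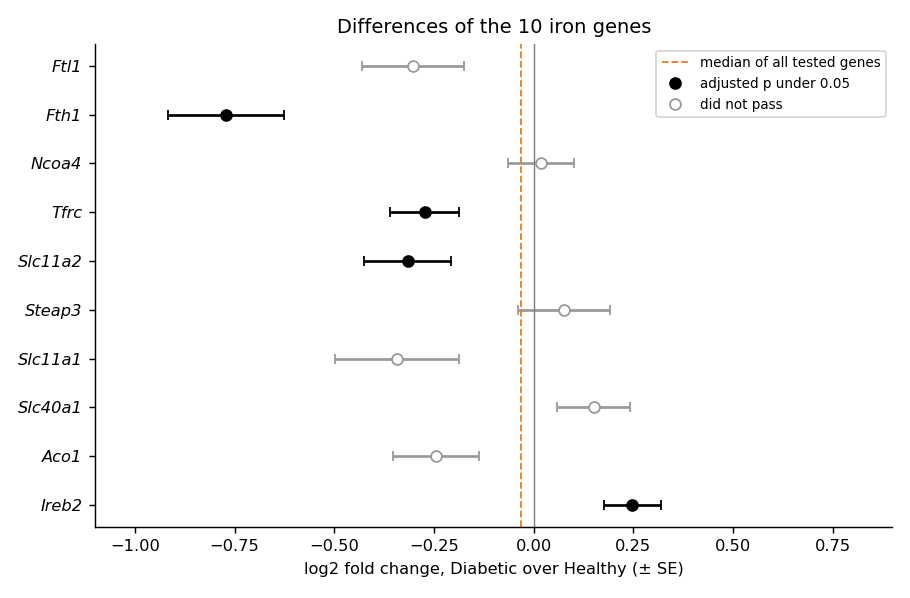
Log2 fold change of each of the 10 genes (x axis, Diabetic over Healthy, bars are the SE, 4 libraries a group), by gene (y axis). Filled points passed an adjusted p under 0.05 in edgeR and open points did not; Fth1 lies farthest from 0 at -0.77, and the dashed line is the median of all tested genes at -0.03.

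Levels within a library can be set against each other in TPM, a read count scaled by transcript length and library total. In Diabetic libraries Ftl1 led at 8765 ± 1257 TPM, then Fth1, and far below them Ncoa4, Slc40a1, Tfrc, Slc11a1, Ireb2, Aco1, Slc11a2 and Steap3, the last at 8.54 ± 1.43 TPM (SD, n = 4). Neighbours in that order overlapped only for Ncoa4 with Slc40a1 and for Slc11a2 with Steap3. In Healthy libraries the order was the same but for Tfrc, which stood between Ncoa4 and Slc40a1 and overlapped both, and the ranges of Ftl1 and Fth1 overlapped. Both ferritin subunits together made up 1.11% to 1.63% of all TPM in Diabetic libraries and 1.77% to 2.47% in Healthy libraries, and these ranges did not overlap.

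**Figure D2:**
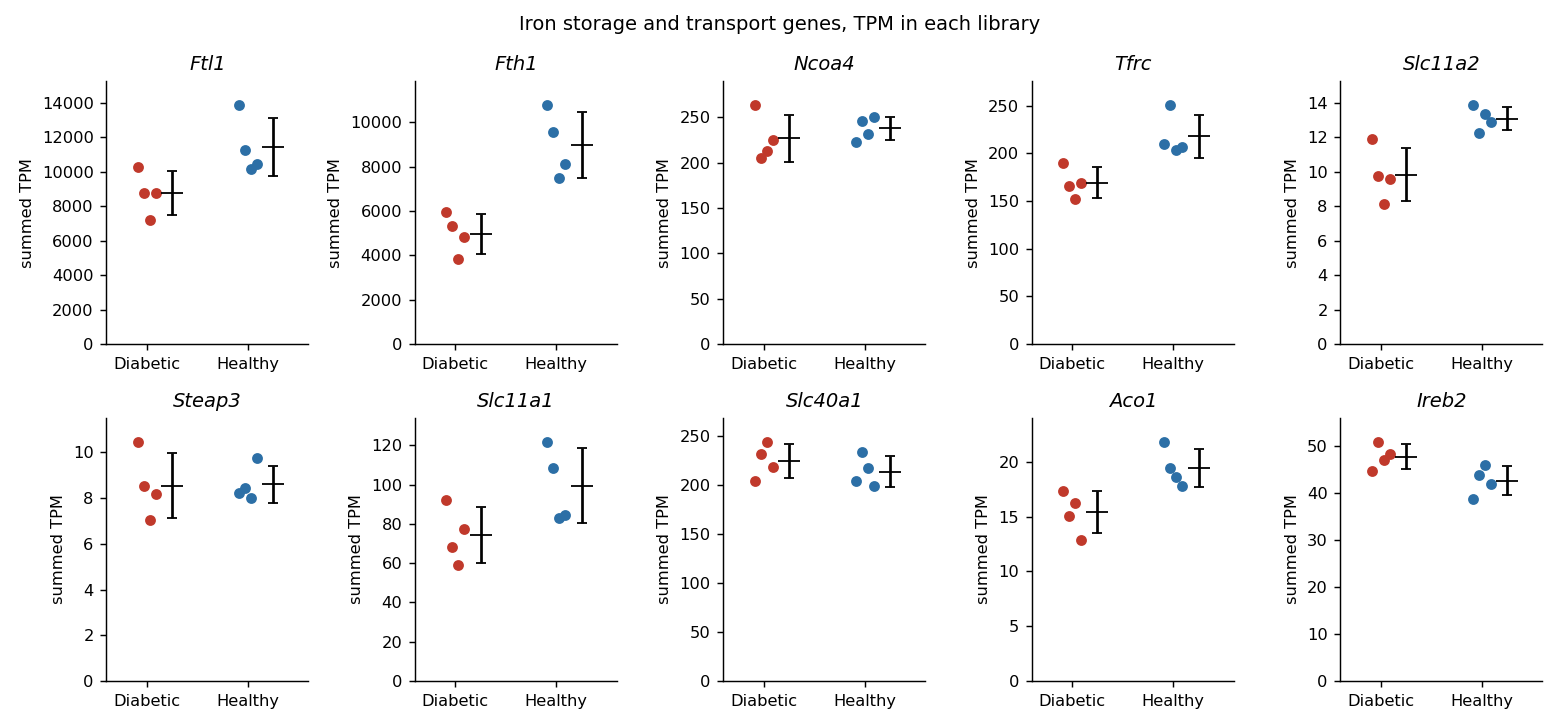
Summed TPM of each gene (y axis, linear from 0) in each of the 4 Diabetic (left) and 4 Healthy (right) libraries; bars are the mean and SD. The 4 Diabetic points of Fth1, 3833 to 5950.4 TPM, all lie below the 4 Healthy points, 7478 to 10786 TPM.

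Ferritin is a hollow shell built from heavy and light subunits. Fth1 encodes the heavy subunit, which oxidises iron for storage, and Ftl1 the light subunit, which favours formation of the iron core. Both mRNAs carry an iron-responsive element in the 5′ UTR, shown here because it is the site through which iron regulatory proteins hold back ferritin translation. The sequences come from GENCODE M21 transcripts on GRCm38, read 5′ to 3′ along the mRNA, with the loop of 6 bases in capitals. The Fth1 element lies at chr19:9982732-9982760 on the plus strand and the Ftl1 element at chr7:45459779-45459807 on the minus strand.
Fth1: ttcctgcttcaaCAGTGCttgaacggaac
Ftl1: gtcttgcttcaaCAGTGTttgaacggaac
The search asked for the loop CAGTGN flanked by 5 paired bases and an unpaired C on the 5′ side, on the mRNA strand only. It matched 4 of the 10 members, all in a UTR. Of 21877 protein-coding genes, 1.34% had a match anywhere in a transcript and 0.731% had one in a UTR. For the members only 14 transcripts linked to RefSeq were searched, while these shares used 58797 protein-coding transcripts. Only this strict form was searched, so members without a match, Slc11a2 among them, were not shown to lack an element. A match is a description of the letters and not a measurement of binding.

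Fth1 (NCBI gene 14319, chr19:9980600-9985111) had 5950.4, 5322, 3833 and 4814 TPM in the 4 Diabetic libraries, against 10786, 9545, 7478 and 8138.5 TPM in the 4 Healthy libraries. Every Diabetic library lay below every Healthy one. The gene fell by 0.77 ± 0.15 on the log2 scale (SE), to 0.586 times the Healthy level, with an adjusted p of 0.00292 by edgeR. This call held in all 23 alternative settings, with log2 fold changes from -0.87 to -0.65.

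Ftl1 (NCBI gene 14325, chr7:45457944-45459886) had 10301, 8742, 7222 and 8796 TPM in the Diabetic libraries, against 13872, 11258, 10179 and 10469 TPM in the Healthy libraries. The highest Diabetic library lay above the lowest Healthy one. Its log2 fold change was -0.30 ± 0.13 (SE), with an adjusted p of 0.0890 by edgeR, which did not pass. With the replicate number as a block the value was -0.29 with an adjusted p of 0.0196, and without Diabetic replicate 1 it was -0.35 with 0.0478, but without Healthy replicate 1 it was -0.18 with 0.237. Ftl1 also passed with library totals as scaling, at an edgeR adjusted p of 0.0384. By limma, adjusted p was 0.0393 on log2(TPM + 1), 0.0398 on log2(TPM + 0.1) and 0.0436 on log2(FPKM + 1). On log2(TPM + 1) with no filter it did not pass, at 0.0630. Both ferritin genes have close copies: the GENCODE annotation names 16 ferritin gene models, 7 of them pseudogenes, and how reads shared with them were counted is not given in the sources used here.

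Ncoa4 encodes the receptor that delivers ferritin to lysosomes, where its iron is released. It ranged from 206 to 264 TPM in Diabetic and from 223 to 251 TPM in Healthy libraries, which overlap. Its log2 fold change was 0.02 ± 0.08 (SE), with an adjusted p of 0.873 by edgeR, and its sign turned under several scalings.

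The heavy subunit was lower relative to the light one as well. The ratio of Fth1 to Ftl1 TPM was 0.578, 0.609, 0.531 and 0.547 in Diabetic libraries, against 0.778, 0.848, 0.735 and 0.777 in Healthy libraries. The groups did not overlap, and the log2 ratio differed by -0.47, with a two-sided exact permutation p of 0.0286, the smallest that 4 against 4 libraries can give, and 0.0381 after adjustment over the 4 ratios compared. A ratio within a library does not depend on the scaling between libraries, but it shows unequal change and not which gene changed. Any ratio whose groups do not overlap gets this smallest exact p, and 34.7% of single genes did not overlap in CPM. The share of other gene pairs whose ratios separate was not examined, so separated ratios are not shown to be particular to the members.

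Tfrc encodes the transferrin receptor, which brings transferrin-bound iron into endosomes. Its 3′ UTR held 4 matches to the same hairpin, shown because iron regulatory proteins bound there are known to protect this mRNA from decay, the opposite of their part at ferritin. They lie on the plus strand of GRCm38 at chr16:32631219-32631247, chr16:32631598-32631626, chr16:32631663-32631691 and chr16:32631710-32631738, in this order.
Tfrc element 1: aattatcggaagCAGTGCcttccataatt
Tfrc element 2: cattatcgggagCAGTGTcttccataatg
Tfrc element 3: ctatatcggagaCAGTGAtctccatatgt
Tfrc element 4: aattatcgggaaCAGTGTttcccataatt
The loop differed between elements only in its last base, C, T, A and T.

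Tfrc (NCBI gene 22042, chr16:32608896-32632794) had 190.3, 166, 152 and 169 TPM in Diabetic libraries, against 209.81, 251, 203 and 207 TPM in Healthy libraries. Every Diabetic library lay below every Healthy one, and Healthy replicate 2 stood highest. The gene fell by 0.27 ± 0.09 on the log2 scale (SE), with an adjusted p of 0.0332 by edgeR. The call was lost when any of 5 libraries was left out: Diabetic replicate 2, 3 or 4, or Healthy replicate 1 or 2, with edgeR adjusted p from 0.0633 to 0.0939. It was also lost from the most abundant transcript alone, with an adjusted p of 0.0557, and from curated transcripts alone, with 0.0519.

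Slc11a2 encodes DMT1, which carries ferrous iron out of endosomes. It had 11.9, 9.76, 8.11 and 9.59 TPM in Diabetic libraries, against 13.9, 12.2, 13.3 and 12.9 TPM in Healthy libraries. The groups did not overlap in TPM but did in CPM, where Diabetic replicate 1 reached 22.3 and Healthy replicate 2 stood at 21.8. The gene fell by 0.32 ± 0.11 on the log2 scale (SE), with an adjusted p of 0.0448 by edgeR. The call was lost with DESeq2's size factors at an adjusted p of 0.0529, with no filter at 0.0509, from curated transcripts at 0.165, and when any library other than Diabetic replicate 1 was left out, at 0.0617 to 0.117. Counted from its most abundant transcript, the gene was at -0.11 on the log2 scale, with an adjusted p of 0.782.

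Steap3, the endosomal reductase that turns ferric into ferrous iron, ranged from 7.02 to 10.5 TPM in Diabetic and from 7.99 to 9.77 TPM in Healthy libraries. Its log2 fold change was 0.08 ± 0.12 (SE), with an adjusted p of 0.632 by edgeR. Slc11a1 encodes NRAMP1, a metal transporter of the phagosome membrane, and C57BL/6 mice are known to carry a loss-of-function allele of it. It ranged from 59.0 to 92.3 TPM in Diabetic and from 83.0 to 122 TPM in Healthy libraries, which overlap. Its log2 fold change was -0.34 ± 0.16 (SE), with an adjusted p of 0.113 by edgeR, 0.0234 with the replicate block, and -0.21 with 0.283 without Healthy replicate 1. The ratio of Slc11a1 to Slc11a2 TPM averaged 7.53 ± 0.476 in Diabetic and 7.61 ± 1.41 in Healthy libraries (SD, n = 4 each), with an exact permutation p of 1.

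Slc40a1 encodes ferroportin, the only known iron exporter of mammalian cells. Its curated transcript NM_016917 held an element in the 5′ UTR at chr1:45925465-45925493, minus strand of GRCm38, shown because the gene's other main transcript is a different model.
Slc40a1: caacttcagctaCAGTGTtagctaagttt
Summed over transcripts, Slc40a1 had 204, 232, 244 and 218 TPM in Diabetic libraries, against 204, 234, 217 and 199 TPM in Healthy libraries. The groups overlapped throughout. Its log2 fold change was 0.15 ± 0.09 (SE), with an adjusted p of 0.220 by edgeR, 0.23 with 0.0498 without Diabetic replicate 1, and 0.094 with 0.401 without Diabetic replicate 3. From the most abundant transcript alone it was -0.30, with an adjusted p of 0.241.

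In these libraries the transcripts behind that sum held different shares in each group, a difference that did not pass adjustment over all transcripts. The predicted transcript XM_006496137 had 95.9, 97.1, 90.9 and 86.9 TPM in Diabetic libraries, against 70.5, 27.4, 46.1 and 22.8 TPM in Healthy libraries. The groups did not overlap, and Healthy replicate 1 lay closest to the Diabetic libraries. This transcript held 41.5% ± 4.12 of the gene's TPM in Diabetic and 19.7% ± 10.8 in Healthy libraries (SD, n = 4 each), and NM_016917 held 58.5% ± 4.12 in Diabetic and 80.3% ± 10.8 in Healthy libraries. An exact permutation test of the XM_006496137 share gave a two-sided p of 0.0286, the smallest possible here, for a transcript chosen after its values were seen. Across all transcripts it did not pass: the log2 fold change was 1.23 ± 0.35 with an edgeR adjusted p of 0.115, where 4.02% of 32923 transcripts passed, and the test of transcript use gave an unadjusted p of 0.00218 and an edgeR adjusted p of 0.436, where 0.243% of 28028 transcripts passed. On simulated data the transcript-use test recovered 0 of 200 transcripts changed 2-fold and 33 of 200 changed 8-fold, with 37 false calls, so it says little either way. The test of transcript differences recovered 19 of 200 transcripts changed 2-fold and 142 of 200 changed 8-fold. A transcript that did not pass it may therefore still differ. Without Healthy replicate 1 the log2 fold change was 1.63 with an edgeR adjusted p of 0.0478, and transcript use had an adjusted p of 0.0217. The sequence of XM_006496137 was not used here, and whether it holds the element was not examined.

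**Figure D3:**
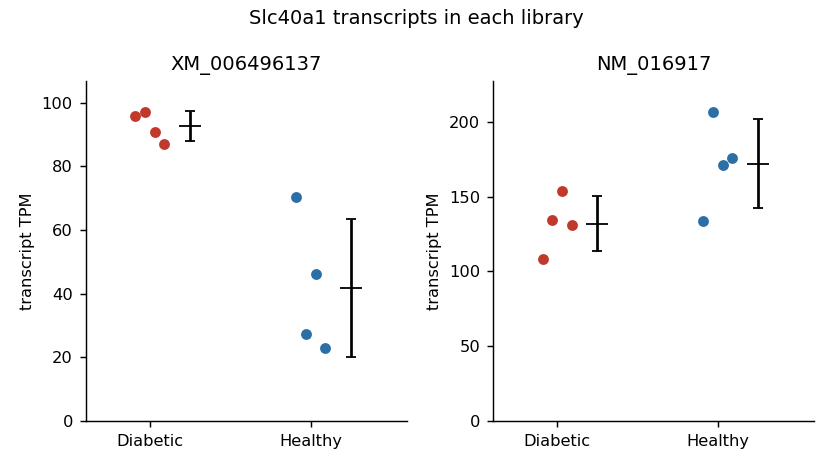
TPM of both main Slc40a1 transcripts (y axis, linear from 0) in each Diabetic (left) and Healthy (right) library; bars are the mean and SD of 4 libraries. XM_006496137 lies between 86.9 and 97.1 TPM in Diabetic and between 22.8 and 70.5 TPM in Healthy libraries, while the groups overlap for NM_016917.

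Set against the exporter, the receptor was lower in Diabetic libraries. The ratio of Tfrc to Slc40a1 TPM was 0.931, 0.716, 0.623 and 0.774 in Diabetic libraries, against 1.03, 1.07, 0.935 and 1.04 in Healthy libraries. The groups did not overlap, though Diabetic replicate 1 and Healthy replicate 3 lay close together. The log2 ratio differed by -0.43, with a two-sided exact permutation p of 0.0286 and 0.0381 after adjustment over 4 ratios. From the most abundant transcript of each gene alone the difference was 0.02, with an adjusted p of 0.943.

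Aco1 and Ireb2 encode the iron regulatory proteins IRP1 and IRP2. IRP1 doubles as cytosolic aconitase when it holds an iron-sulphur cluster, and IRP2 is degraded when iron is plentiful, so neither mRNA level measures binding activity. Ireb2 (NCBI gene 64602, chr9:54862658-54912534) had 130.05, 149.8, 150.5 and 147.6 CPM in the Diabetic libraries, against 114, 125, 129 and 118 CPM in the Healthy libraries. Every Diabetic library lay above every Healthy one, with Diabetic replicate 1 just above Healthy replicate 3 and apart from the other Diabetic libraries. In TPM the groups overlapped, at 44.6 to 50.9 in Diabetic and 38.6 to 46.0 in Healthy libraries. The gene rose by 0.25 ± 0.07 on the log2 scale (SE), with an adjusted p of 0.0221 by edgeR. The call was lost with library totals as the only scaling, at 0.14 with an adjusted p of 0.114, and on log2(TPM + 1), at 0.16 with 0.104 by limma. It was also lost when Diabetic replicate 2 or 4, or Healthy replicate 1 or 4, was left out, with edgeR adjusted p from 0.0515 to 0.0661.

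The most abundant Ireb2 transcript was the predicted XM_017313499. It had 31.5, 33.5, 26.2 and 26.5 TPM in Diabetic libraries, against 20.4, 22.4, 22.8 and 24.4 TPM in Healthy libraries, and the groups did not overlap. It rose by 0.47 ± 0.09 on the log2 scale (SE), with an edgeR adjusted p of 0.0287. The curated transcript NM_022655 had a log2 fold change of -0.02 ± 0.18 (SE), with an edgeR adjusted p of 0.990. Counted from curated transcripts alone, the gene's log2 fold change was -0.02, with an adjusted p of 0.960. The share of XM_017313499 in the gene's TPM was 61.7% ± 7.66 in Diabetic and 52.9% ± 3.86 in Healthy libraries (SD, n = 4 each), with an exact permutation p of 0.114, and edgeR's test of transcript use gave an unadjusted p of 0.336 and an adjusted p over 0.99, so a difference between the Ireb2 transcripts was not shown. The call of XM_017313499 was lost with the replicate block, at an edgeR adjusted p of 0.127, with library totals, at 0.0956, and when Diabetic replicate 2 or any Healthy library was left out. Of the 20 member transcripts tested, Fth1's single transcript was the other one past the threshold, with an edgeR adjusted p of 0.0479, and it passed with 1 library left out only where that was Diabetic replicate 1. Over all transcripts 2.24% rose and 1.78% fell.

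Aco1 ranged from 12.9 to 17.4 TPM in Diabetic and from 17.8 to 21.8 TPM in Healthy libraries, which do not overlap in TPM but do in CPM. Its log2 fold change was -0.25 ± 0.11 (SE), with an adjusted p of 0.0985 by edgeR and 0.0397 with the replicate block. It was -0.15 with an adjusted p of 0.306 without Diabetic replicate 4, and -0.38 with 0.0253 without Diabetic replicates 1 and 3. Aco1 also passed with library totals as scaling, at an edgeR adjusted p of 0.0263. By limma, adjusted p was 0.0320 on log2(TPM + 1), 0.0327 on log2(TPM + 0.1) and 0.0311 on log2(FPKM + 1). On log2(TPM + 1) with no filter it did not pass, at 0.0501. The ratio of Aco1 to Ireb2 TPM was 0.390, 0.296, 0.346 and 0.267 in Diabetic libraries, against 0.565, 0.443, 0.404 and 0.426 in Healthy libraries. The groups did not overlap, and the log2 ratio differed by -0.50, with a two-sided exact permutation p of 0.0286 and 0.0381 after adjustment over 4 ratios.

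**Figure D4:**
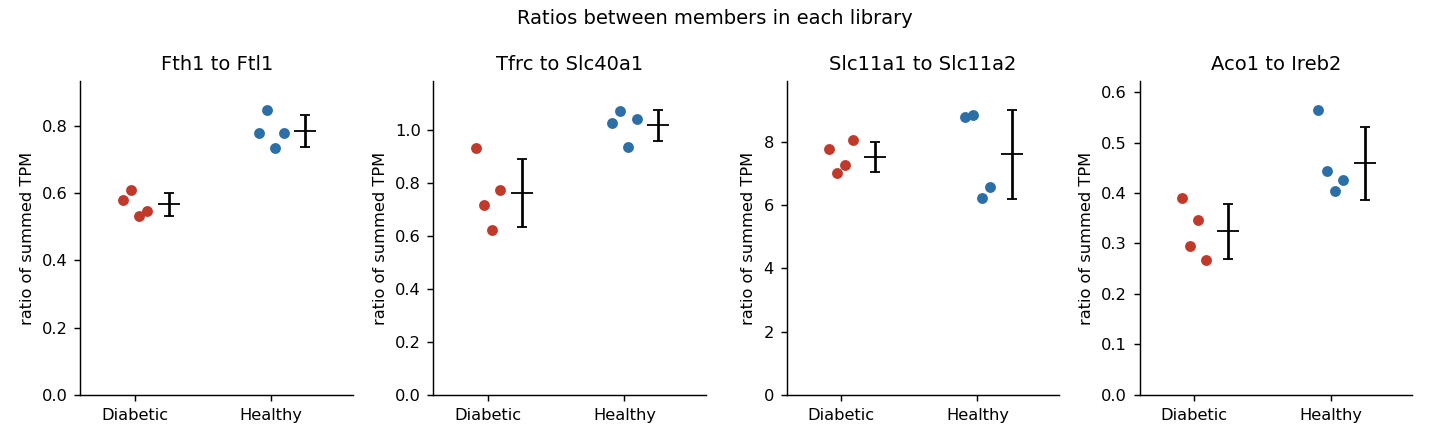
Ratio of summed TPM between pairs of members (y axis, linear from 0) in each Diabetic (left) and Healthy (right) library; bars are the mean and SD of 4 libraries. Diabetic lies below Healthy in every library for 3 ratios, Fth1 to Ftl1, Tfrc to Slc40a1 and Aco1 to Ireb2, while Slc11a1 to Slc11a2 overlaps. The share of other gene pairs whose ratios separate was not examined.

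Other genes of iron handling moved in both directions. In 4 lists of iron genes without the members, 86 of 100 genes were tested; 18 rose and 12 fell, with a median log2 fold change of -0.09, so the share that passed was close to the 34.7% of all genes. That split turned with the scaling: with library totals alone 13 rose and 21 fell. Of 17 tested genes of other iron uptake, reduction and export, 8 rose and 0 fell, 47.1% against the 34.7% of all genes, with a median of 0.31. They included Trf, which encodes the plasma iron carrier transferrin, at 80.3 ± 18.7 CPM in Diabetic and 45.0 ± 7.06 CPM in Healthy libraries (SD, n = 4 each). Lcn2, a siderophore-binding protein abundant in neutrophils, was at 1868 ± 187 CPM in Diabetic and 1262 ± 79.8 CPM in Healthy libraries. The endocytic genes Picalm and Rab11a had log2 fold changes of 0.68 and 0.31. Neutrophil markers, a list that also holds Lcn2 and Ltf, moved with these genes: 12 of 18 rose and 0 fell. That was 66.7% against the 34.7% of all genes. Their summed levels were 46353 to 71606 CPM in Diabetic and 40065 to 42049 CPM in Healthy libraries. The part of neutrophils in the result was not tested.

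Of 21 tested genes of haem uptake, synthesis and breakdown, 2 rose and 5 fell, with a median of -0.27; the 33.3% that passed is near the 34.7% of all genes. Hmox1, the enzyme that opens haem and frees its iron, had 288, 227, 174 and 197 CPM in Diabetic libraries, against 568, 420.5, 334 and 346 CPM in Healthy libraries, which do not overlap. It fell by 0.91 ± 0.20 on the log2 scale (SE), with an adjusted p of 0.00702 by edgeR. Blvrb, a biliverdin reductase further down the same route, fell by 0.83. Bach1, a haem-binding repressor of Hmox1 and of ferritin genes, had a log2 fold change of 0.34 and rose. That call was lost with library totals as scaling, in every TPM and FPKM setting, and from curated or most abundant transcripts alone. It was also lost without Diabetic replicate 4 or Healthy replicate 1. The haem exporter Flvcr1 rose by 0.35. Of 16 targets of NRF2, a transcription factor that also drives ferritin genes, 3 rose and 8 fell, 68.8% against the 34.7% of all genes, with a median of -0.51; Gclc, of glutathione synthesis, fell by 0.90, Cat, which encodes catalase, fell by 0.55, and Gsr, glutathione reductase, rose by 0.55.

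Of 28 tested genes of mitochondrial iron and iron-sulphur cluster assembly, 1 rose and 4 fell, with a median of -0.20; the 17.9% that passed is below the 34.7% of all genes. Those that fell included Iba57, Fdx1 and Ndor1, with log2 fold changes of -0.52, -0.58 and -0.56; Iba57 did not pass without Healthy replicate 4. Slc25a37, the mitochondrial iron importer mitoferrin, averaged 244 ± 20.3 CPM in Diabetic and 239 ± 39.3 CPM in Healthy libraries (SD, n = 4 each), with an edgeR adjusted p of 0.864. Of 20 tested iron chaperones and regulators, 7 rose and 3 fell, 50% against the 34.7% of all genes, with a median of 0.14. Bmpr1a, a bone morphogenetic protein receptor, averaged 55.6 ± 17.2 CPM in Diabetic and 12.7 ± 1.72 CPM in Healthy libraries and rose by 2.13, Bmpr2 rose by 0.67 and Hif1a, a hypoxia factor, rose by 0.63. Fbxl5, which targets IRP2 for degradation, rose by 0.41 and Pcbp1, which hands iron to ferritin, fell by 0.26, a call lost when any library other than Diabetic replicate 1 was left out, at edgeR adjusted p up to 0.121. Of 7 other mRNAs known to carry an iron-responsive element, 2 rose and 2 fell, 57.1% against the 34.7% of all genes. The list median was -0.16. App and Cdc14a rose, by 0.53 and 0.51. Cdc42bpa and Pfn2 fell, by 0.59 and 2.25, the last at 0.376 CPM in Diabetic and 1.82 CPM in Healthy libraries.

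**Figure D5:**
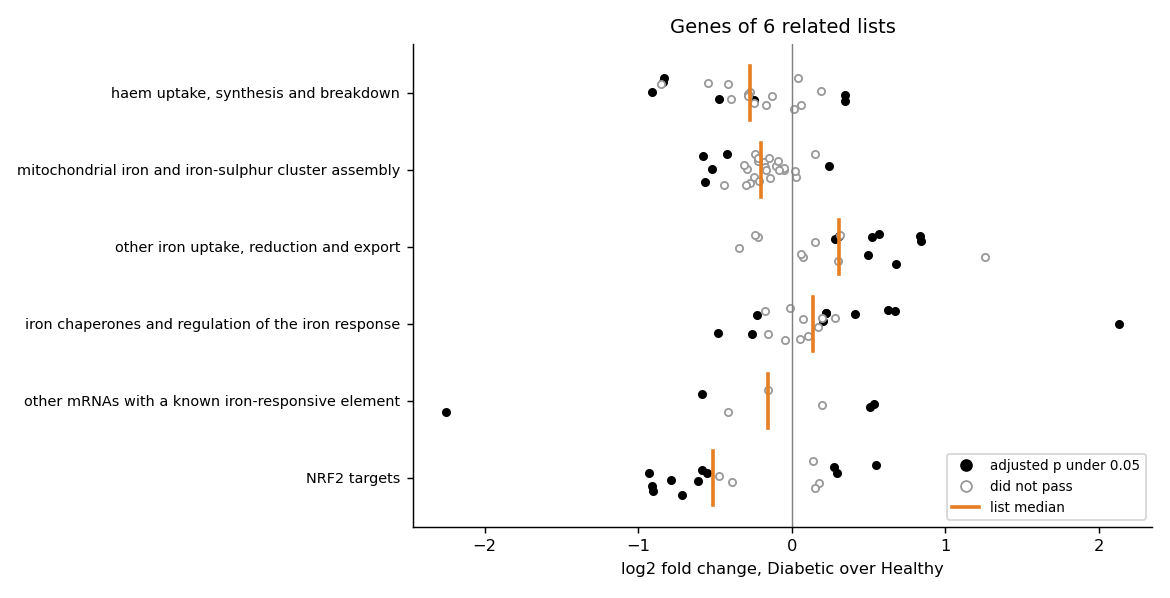
Log2 fold change (x axis, Diabetic over Healthy) of each tested gene in 6 lists of iron-related genes that leave out the 10 members. Filled points passed an adjusted p under 0.05 in edgeR, open points did not, vertical bars are list medians, from -0.51 for NRF2 targets to 0.31 for other iron uptake, reduction and export; vertical scatter is for display.

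Markers of several other cell types differed between groups, while few erythroid markers passed. Red cell precursors depend on Tfrc, Slc11a2 and Steap3, and erythroid markers summed to 1455 to 7454 CPM in Diabetic and 4904 to 8812 CPM in Healthy libraries, which overlap, with Diabetic replicate 3 lowest. Of 18 erythroid markers, 17 had log2 fold changes below 0, with a median of -0.62 over the list. Only Rhag fell, and only Tfr2, which also counts among the iron uptake genes above, rose. Thus 11.1% of the erythroid markers passed, below the 34.7% of all genes. None of the defining ones was at 0: Hba-a1 averaged 660.3 ± 417 CPM in Diabetic and 1380.3 ± 461 CPM in Healthy libraries (SD, n = 4 each). Macrophage markers rose in 10 and fell in 0 of 15, 66.7% against the 34.7% of all genes. Their summed levels were 9177 to 14409 CPM in Diabetic and 6591 to 7488 CPM in Healthy libraries. Most of that came from Lyz2 and Itgam, which neutrophils express too. Without this pair, 8 of 13 rose and 0 fell, with sums of 681 to 831 CPM in Diabetic and 479 to 638 CPM in Healthy libraries. B and plasma cell markers fell in 13 and rose in 1 of 17, 82.4% against the 34.7% of all genes. Megakaryocyte markers fell in 10 of 10, or 100%. Basophil and mast cell markers rose in 8 of 9 (88.9%), eosinophil markers in 5 of 7 (71.4%) and T and natural killer cell markers in 7 of 13 (53.8%), and 0 fell. Monocyte markers rose in 4 and fell in 1 of 9 (55.6%), and dendritic cell markers fell in 5 and rose in 0 of 11 (45.5%). Cell cycle genes rose in 12 and fell in 0 of 20 (60%). The part of these cells in the differences of the members was not tested. Without Diabetic replicates 1 and 3, a choice made after the data were seen, 1 member rose and 4 fell, where 33.1% of all genes passed.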

How the data were processed

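The design text in the labels says that poly(A) RNA was selected and that SOAPnuke 1.5.6 cleaned the reads before alignment to mm10 by software it calls HISTA2, version 2.1.0. No source used here names the quantifier, the annotation release or the strand setting. The table the authors deposited gives, per the file headers, TPM, FPKM and an estimated count, the last without normalization, for each RefSeq transcript. Another 16 deposited columns were not used.

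Estimated counts were summed per gene, rounded and tested with edgeR 4.0.16 (TMM factors, filterByExpr at a minimum count of 10, robust quasi-likelihood fit, Benjamini-Hochberg adjustment, threshold 0.05) in R 4.3.3; transcripts were tested likewise and transcript use with diffSpliceDGE. A fall or rise in the text is a log2 fold change past that threshold. CPM uses TMM-scaled library sizes. The biological coefficient of variation was 12.4%. TPM ratios were compared with exact permutation tests (scipy 1.17.1). DESeq2 1.42.0 and limma 3.58.1 served as alternatives. On simulated data, with the same dispersion for every gene, the gene test recovered 81% of genes changed 1.5-fold and 97% of those changed 2-fold. Changes as small as those of Tfrc, Slc11a2 and Ireb2 were not simulated, so recovery at that size is not known.

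The members and lists were chosen with earlier results of these data known. Named were the 10 members, up to 4 called genes of lowest p per iron-related list, and Hmox1, Lcn2, Slc25a37, Pcbp1, Fbxl5 and Bach1; 1 gene that this rule names is not reported here. Libraries with the same number deviated together, with correlations of 0.115 to 0.182, against -0.178 to 0.0735 for other pairs. A pairing by number was therefore read from the data and not from the labels. It entered only the alternative fits with the replicate block and the paired exact p-values of the ratios. The main gene and transcript tests and the main exact ratio tests compared the groups without it. With the block, Aco1, Ftl1 and Slc11a1 also passed as lower. Coordinates are GRCm38, and no member overlapped another gene of the table.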

Additional observations from a re-analysis of the deposited data

Results flagged for a closer look

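Of 50 groups of 4 libraries examined (CPM of the members, their ratios and transcript shares), 2 had one library set apart from the other 3 by a gap over Dixon's critical value for 4 libraries, which chance exceeds in about 1 in 20 groups. Ireb2 stood at 130.05 CPM in Diabetic replicate 1, while the other Diabetic libraries lay between 147.6 and 150.5 CPM. The Ncoa4 transcript XM_006519067 made up 69.0% of the gene's TPM in Diabetic replicate 2, while the other Diabetic libraries lay between 65.2% and 65.7%.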

How the results depend on the processing

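Fth1 was called lower under every one of its 23 alternatives. The other 3 member calls were not as firm. With 1 library left out, 1 to 6 members were called, against 4 with all libraries, as 26.7% to 41.3% of all genes passed. From the most abundant transcript alone 2 members were called, and from curated transcripts alone 1, as calls over all genes fell to 2036 and 2531 from 4456, where fewer reads and genes entered. There Flvcr1, Bach1, Bmpr2, Hif1a, Cdc42bpa, Ndor1, Fdx1, Iba57, Gclc and Pcbp1 did not pass from the most abundant transcript. The replicate block called 7 members, adding Aco1, Ftl1 and Slc11a1 as lower, and no other member gene call changed; 37.5% of all genes passed there.

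Scaling set the balance of directions. Library totals, log2(TPM + 1), log2(TPM + 0.1), log2(TPM + 1) with no filter and log2(FPKM + 1) put 31.3%, 33.0%, 33.2%, 32.5% and 30.9% of called genes on the higher side, against 50.1% with TMM. Library totals moved the median log2 fold change of all genes by -0.10 and log2(TPM + 1) by -0.09, and under both 0 members rose and 5 fell, where 37.9% and 37.7% of all genes passed. Those 5 were Aco1, Fth1, Ftl1, Slc11a2 and Tfrc. Ncoa4, Steap3, Slc40a1 and Ireb2, the last a called gene, changed sign under some settings. Ncoa4 was at -0.085 with library totals, -0.0025 with upper-quartile factors, -0.073 with each TPM setting, -0.088 with FPKM, -0.17 from curated transcripts, -0.047 without Diabetic replicates 1 and 3, and between -0.020 and 0.074 with 1 library left out. Steap3 was at -0.025 with library totals, -0.017 on log2(TPM + 1) with or without the filter, -0.020 on log2(TPM + 0.1) and -0.027 with FPKM, and its transcript NM_133186 at -0.010 with library totals. Slc40a1 was at -0.30 from the most abundant and -0.28 from curated transcripts, and Ireb2 at -0.016 from curated transcripts. Slc25a37 was at -0.080 with library totals, -0.077 with FPKM, -0.062 with each TPM setting, -0.29 from curated transcripts, and between -0.073 and 0.12 with 1 library left out. The cause of these changes was not tested.

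Transcript differences numbered 1323, 325 with the replicate block, and 221 to 1689 with 1 library left out. Transcript use had 68 calls, 33 at a minimum of 50 counts, 31 with the replicate block, 28 from curated transcripts, 124 with limma on log2 ratios, a test chosen after the data were seen, and 40 to 67 with 1 library left out. With 1 library left out, log2 values crossed 0 for NM_022655 (-0.11 to 0.13) and NM_008732 (-0.23 to 0.061), and relative use did for NM_011638 (-0.0065 to 0.0055), NM_013612 (-0.0087 to 0.023), XM_006495774 (-0.089 to 0.032) and NM_008732 (-0.010 to 0.12); limma put NM_011638 at -0.083.

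The ratio of Fth1 to Ftl1 differed by -0.47 from estimated counts and from the most abundant transcripts, and that of Aco1 to Ireb2 by -0.50 and -0.72, each with an exact permutation p that rose to 0.0571 after adjustment because another of the 4 ratios no longer separated. The ratio of Tfrc to Slc40a1 differed by -0.42 from counts, with an adjusted exact p of 0.0762, and by 0.016 from the most abundant transcripts. With 1 library left out these 3 ranged from -0.51 to -0.43, from -0.60 to -0.40 and from -0.53 to -0.34. Slc11a1 to Slc11a2 lay near 0, at -0.0084 from counts, -0.0011 from FPKM, -0.26 from the most abundant transcripts, -0.00027 without Diabetic replicates 1 and 3, and -0.089 to 0.080 with 1 library left out. Paired by replicate number, 4 pairs cannot give an exact p under 0.125, which 3 ratios reached. How reads were divided among overlapping transcript models was not examined.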
